A study of Rattus norvegicus with 6 samples.

Results

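The 45 genes described here act in mitosis: the kinases and cyclins that start it, the kinetochore and spindle checkpoint, the chromosomal passenger complex, condensin, the anaphase machinery, cytokinesis proteins and the transcription factors of the late cell cycle. They were chosen by name, with earlier results of these data known. All 45 were found among the 19825 genes of the deposited count table and passed the filter on low counts. The RNA came from H9C2, an established rat myoblast line of embryonic heart origin, which the labels class as cardiomyocytes. For 3 libraries (siPUM2 1, 2 and 3) the cells had received small interfering RNA against PUM2; this Pumilio protein binds messages and represses many of them. The other 3 (NC 1, 2 and 3) were controls, given an empty vector according to the labels. All 6 libraries are of this single line, with no sorting of the cells. The labels name neither the sequence of the interfering RNA nor a non-targeting one, and whether each library is a culture of its own is not stated, so the p-values below reflect the spread among these 6 samples alone, part or all of which may be technical.

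A cell enters mitosis when cyclin B binds and activates the kinase CDK1. Chromosomes are then compacted by condensin, attach through kinetochores to spindle microtubules, and are held together until the spindle checkpoint allows the anaphase-promoting complex to destroy securin and cyclin B. Most of these genes are transcribed in late S phase and G2 under the MuvB complex with B-MYB (Mybl2) and FOXM1, and their messages are scarce in cells that have left the cycle. In an unsorted culture, fewer cells in G2 and mitosis and less message per cell cannot be told apart.

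The libraries held 27704702 to 30579237 counts, and the level of a gene is given below in CPM (counts scaled to the library total and TMM factor), or in FPKM (fragments scaled also to gene length) where genes are compared with each other. Pum2 itself was at 223 to 228 CPM in NC and 120 to 127 CPM in siPUM2 (log2 fold change -0.86 ± 0.0279, SE; adjusted p = 9.23e-19, edgeR). Among markers of the labelled cell type, Tnnt2 and Nkx2-5 were present in all libraries and Myh7, Tnni3, Actn2 and Ryr2 failed the filter, while Myh6 was at 0.752 CPM or less. Some markers moved with the knockdown, where 15.1% of all genes tested were called higher and 13.3% lower. Of 5 cardiomyocyte markers tested 2 rose (Tnnt2 and Pln). The 3 others were not called and had negative log2 fold changes, and the list median was -0.12. The sum of this list was 306 to 365 CPM in NC and 471 to 525 CPM in siPUM2. Of 5 skeletal myoblast markers 3 rose (Des, Cdh15 and Mymk) and Myog fell (list sum 364 to 373 and 385 to 409 CPM). Log2 fold changes ranged from -1.12 to 0.20 in this list and from -0.58 to 0.83 among the cardiomyocyte markers tested. Of 2 fibroblast markers tested Thy1 rose and Col1a1 fell (9083 to 9216 and 8670 to 8998 CPM), with Pdgfra and Dcn near 0. The endothelial, macrophage and Schwann or neural lists summed to at most 1.82 CPM in any library, with none of their genes called. The part of these cell states in the results below was not tested.

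Mitotic genes were lower after PUM2 knockdown, by small amounts and in each of the roles described below. Of the 45 genes, 34 were called lower in siPUM2 (75.6%), 0 were called higher and 11 were not called. A gene counted as called at a Benjamini-Hochberg adjusted p under 0.05 over all 12985 genes tested, by edgeR's quasi-likelihood test. Over all genes tested, 13.3% were called lower, 15.1% higher and 28.4% in either direction. Among the 6576 genes whose NC level lay in the range of the mitotic genes, 18.8 to 311 CPM, 18.8% were called lower. The median log2 fold change of the mitotic genes was -0.18, against 0.001 over all genes tested, and 44 of the 45 values were negative. The called genes fell 1.07-fold to 1.34-fold, with a median of 1.15-fold, which is also the median of all called genes in the series. When the same fit was asked for a change beyond 1.1-fold, 10 of the mitotic genes were called lower, where 2.8% of all genes were.

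**Figure D1:**
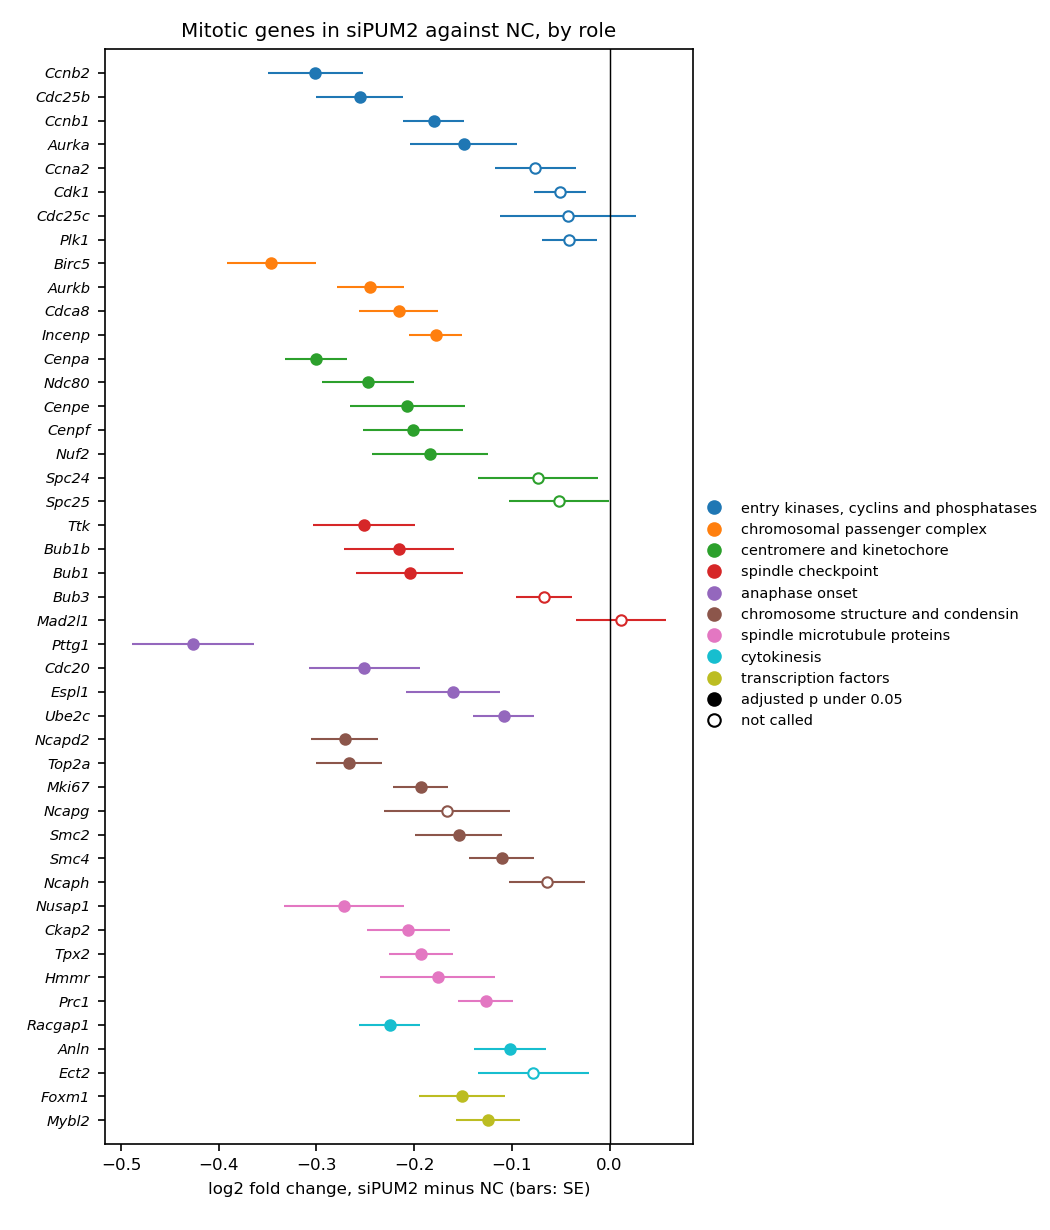
Log2 fold change of each of the 45 mitotic genes (siPUM2 minus NC, x axis) with its SE as a bar; colours mark the role, filled points the genes called at an adjusted p under 0.05 and open points the genes not called. The lowest value is that of Pttg1 at -0.43, and Mad2l1 at 0.01 is the single value above 0.

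The shift was seen in each siPUM2 library. The 45 genes summed to 3517, 3682 and 3646 CPM in NC 1, 2 and 3, against 3223, 3227 and 3249.85 in siPUM2 1, 2 and 3. The siPUM2 libraries were close to each other and below all NC libraries, and their mean was 89.4% of the NC mean (3615 ± 87.0 against 3233 ± 14.5 CPM, SD, n = 3 each). In each siPUM2 library 43 of the 45 genes lay below the NC mean. For 35 genes all 3 siPUM2 libraries lay below all 3 NC libraries, and for none above; over all genes tested these shares were 19.2% and 20.7%. No mitotic gene had its highest level in a siPUM2 library. In the sum of these 45 genes the controls were less alike than the knockdown libraries (SD 87.0 against 14.5 CPM). NC 1 lay below the NC mean for 36 of the genes, NC 3 for 19 and NC 2 for 8. Without NC 1 the median log2 fold change was -0.20 with 34 genes called, and without NC 3 it was -0.16 with 27 called.

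**Figure D2:**
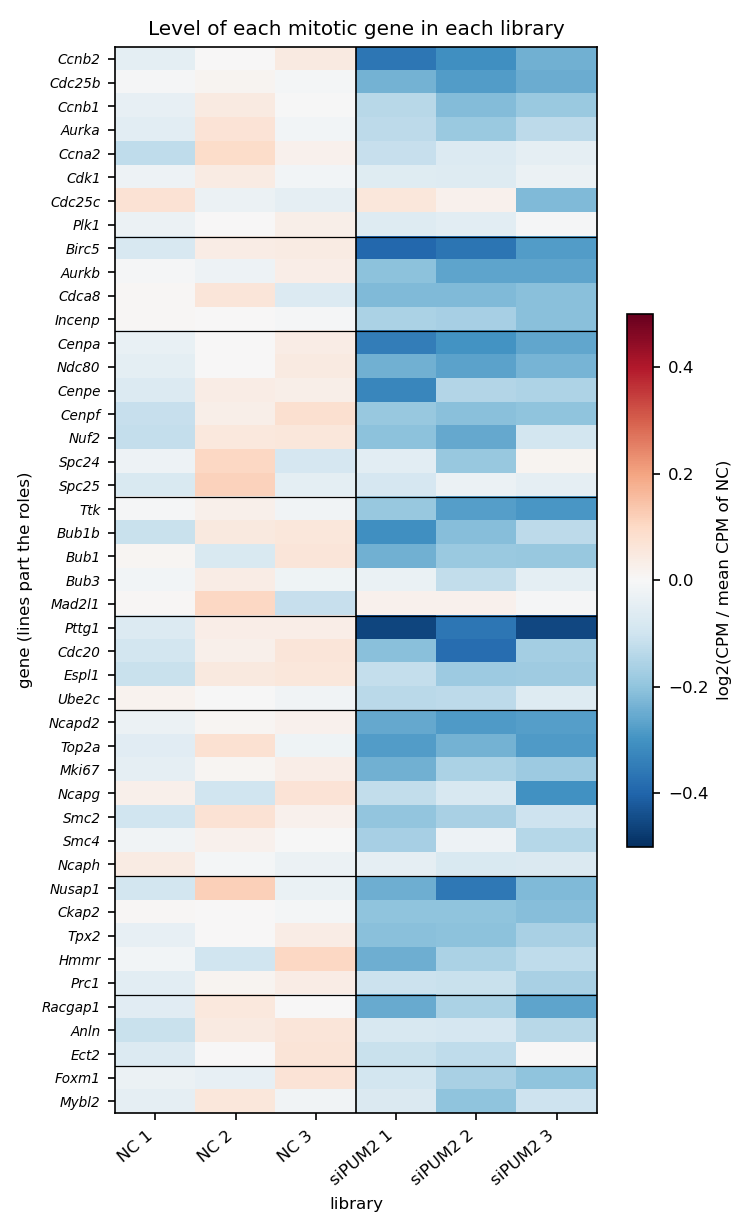
Level of each mitotic gene (rows, grouped by role) in each of the 6 libraries (columns), as log2 of the CPM over the mean CPM of NC; blue is lower and red is higher. The siPUM2 columns are blue for all but a few genes, and the NC 1 column is pale blue for 36 of the 45.

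Many promoters of these genes share sequence elements. The genes were chosen as mitotic genes, most of them under MuvB, so the shares below are not independent of that choice. The cell cycle genes homology region, with the core TTTGAA or TTCGAA, is the element through which MuvB complexes bind, and CCAAT is the element of the factor NF-Y. RefSeq promoters of the build GRCr8, from 250 bases before to 50 bases after the start, were given for 38 of the 45 genes. No entry was given for Ccna2, Aurkb, Incenp, Foxm1, Racgap1, Tpx2 and Ube2c. On either strand, 31 of the 38 windows (81.6%) held TTTGAA or TTCGAA, 29 (76.3%) held CCAAT and 26 (68.4%) held both. In the 9857 windows of tested genes the shares were 14.0%, 38.4% and 5.85%, and in all 27457 windows 19.5%, 37.7% and 7.83%. An E2F-like element written as TTTNNCGC was in 5 of the 38 (13.2%), against 8.68% of tested genes. The elements were found in genes that fell and in genes that were not called: 19 of the 26 genes with both elements were called lower, and 9 of the 12 others. A match of letters is a description of the window and not a measured binding site.

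The 250 bases before the start are printed for 4 of the genes that fell by large amounts and for 2 that were not called, to show that both kinds carry these elements. Capitals mark TTTGAA or TTCGAA and CCAAT on either strand, so that ATTGG and TTCAAA are the same elements on the other strand. The windows lie at chr10:28406327-28406576 (strand -) for Pttg1, chr10:103571896-103572145 (strand +) for Birc5, chr8:79981659-79981908 (strand -) for Ccnb2 and chr6:31431553-31431802 (strand -) for Cenpa. Those of the genes that were not called lie at chr20:19265043-19265292 (strand +) for Cdk1 and chr18:26630293-26630542 (strand -) for Cdc25c. In Ccnb2, CCAAT began 134, 101 and 68 bases before the start, ahead of TTTGAA at 43 bases before it. Another TTTGAA lay further upstream, beginning 214 bases before the start.
Pttg1: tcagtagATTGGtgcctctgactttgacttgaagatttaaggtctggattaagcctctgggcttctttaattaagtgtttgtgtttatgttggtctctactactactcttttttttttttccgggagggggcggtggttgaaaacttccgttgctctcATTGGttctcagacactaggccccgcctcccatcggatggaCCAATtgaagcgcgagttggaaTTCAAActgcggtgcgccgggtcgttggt
Birc5: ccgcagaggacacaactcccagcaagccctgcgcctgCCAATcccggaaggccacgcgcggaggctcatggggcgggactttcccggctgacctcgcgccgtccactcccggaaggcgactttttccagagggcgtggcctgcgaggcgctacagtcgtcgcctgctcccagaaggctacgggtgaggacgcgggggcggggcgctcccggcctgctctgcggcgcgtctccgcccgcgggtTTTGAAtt
Ccnb2: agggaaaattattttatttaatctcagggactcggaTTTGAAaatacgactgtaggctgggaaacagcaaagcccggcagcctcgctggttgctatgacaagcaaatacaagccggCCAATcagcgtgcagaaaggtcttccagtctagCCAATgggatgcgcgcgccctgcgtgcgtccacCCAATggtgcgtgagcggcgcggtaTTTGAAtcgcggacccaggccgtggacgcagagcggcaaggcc
Cenpa: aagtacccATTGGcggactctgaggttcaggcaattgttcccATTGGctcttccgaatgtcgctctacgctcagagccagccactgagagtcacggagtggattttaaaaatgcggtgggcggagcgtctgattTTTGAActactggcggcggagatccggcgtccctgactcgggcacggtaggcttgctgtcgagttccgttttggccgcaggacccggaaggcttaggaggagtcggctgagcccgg
Cdk1: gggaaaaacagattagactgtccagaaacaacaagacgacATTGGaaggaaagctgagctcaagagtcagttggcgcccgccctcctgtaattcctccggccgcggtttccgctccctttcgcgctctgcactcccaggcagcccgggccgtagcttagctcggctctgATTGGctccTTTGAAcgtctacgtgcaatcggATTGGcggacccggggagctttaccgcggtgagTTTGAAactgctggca
Cdc25c: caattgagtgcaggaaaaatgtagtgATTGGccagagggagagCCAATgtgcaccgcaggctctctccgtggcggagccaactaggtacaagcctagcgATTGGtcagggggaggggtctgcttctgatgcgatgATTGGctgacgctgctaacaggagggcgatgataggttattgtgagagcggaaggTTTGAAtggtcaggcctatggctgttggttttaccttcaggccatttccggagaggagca

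Of the 8 genes of mitotic entry, 4 fell and 4 were not called. Ccnb2, a B-type cyclin, read 51.3, 53.1 and 54.7 CPM in NC 1, 2 and 3, against 41.3, 42.9 and 44.95 in siPUM2 1, 2 and 3. The groups did not overlap, and the mean fell 1.23-fold (log2 fold change -0.30 ± 0.0491, SE; adjusted p = 2.48e-05, edgeR). Cdc25b, a phosphatase that activates CDK1, fell 1.19-fold, with a mean of 55.5 ± 0.433 CPM in the controls and 46.5 ± 0.719 after knockdown (SD, n = 3; adjusted p = 6.20e-05). Ccnb1, the main mitotic cyclin, fell 1.13-fold, with a mean of 107 ± 3.22 CPM in the controls and 94.5 ± 2.59 after knockdown (adjusted p = 5.55e-05). Aurka, the kinase of the spindle poles, was called at -0.15 (adjusted p = 0.0396), but not without NC 2, NC 3, siPUM2 1 or siPUM2 2 (adjusted p = 0.0522 to 0.166).

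The kinases Cdk1 and Plk1 and the genes Ccna2 and Cdc25c were not called. Cdk1, the catalytic partner of cyclin B, read 208, 218 and 210 CPM in the NC libraries, against 203, 203 and 207 in the siPUM2 libraries, so that the siPUM2 libraries lay just below the NC libraries. Its log2 fold change was -0.05 ± 0.0266 (adjusted p = 0.164), with an approximate 95% interval from -0.10 to 0.002. Plk1, the polo kinase of mitosis, read 136, 138 and 141 CPM in the NC libraries, against 132, 133 and 138 in the siPUM2 libraries, and the groups overlapped (-0.04 ± 0.0280, adjusted p = 0.294, interval -0.10 to 0.01). Ccna2, the cyclin of S phase and G2, was at -0.08 (adjusted p = 0.184). It was lowest of the controls in NC 1, at 70.5 CPM against 82.0 and 78.1 CPM, and without NC 1 it was called at -0.14 (adjusted p = 0.0194). Cdc25c, a second activator of CDK1, had the lowest CPM of the 45 genes in NC, at 18.8 ± 0.823 CPM, and was at 18.3 ± 1.86 CPM in siPUM2 (interval -0.18 to 0.09). Its log2 fold change was -0.04, and 0.04 without siPUM2 3, where it was at 16.1 CPM against 19.6 and 19.1 CPM.

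All 4 subunits of the chromosomal passenger complex fell, and none of their groups overlapped. This complex corrects faulty attachments of chromosomes to the spindle and later directs cytokinesis. Birc5 (survivin) read 61.5, 66.8 and 66.9 CPM in the NC libraries, against 49.5, 50.5 and 53.6 in the siPUM2 libraries. It fell 1.27-fold (log2 fold change -0.35 ± 0.0454; adjusted p = 9.63e-07, edgeR). Aurkb, the kinase of the complex, fell 1.19-fold, with a mean of 80.9 ± 1.67 CPM in the controls and 68.3 ± 1.67 after knockdown (SD, n = 3; adjusted p = 2.78e-06). Cdca8 (borealin) fell 1.16-fold and the scaffold Incenp 1.13-fold, from 153 ± 0.672 to 135 ± 2.64 CPM. Per gene length, Cdca8 was the highest subunit in NC at 36.7 ± 1.59 FPKM and Incenp the lowest at 22.2 ± 0.0656. Aurkb (32.9 ± 0.732 FPKM) and Birc5 (31.5 ± 1.53 FPKM) did not differ beyond their spread.

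Genes of the centromere and kinetochore fell in 5 of 7 cases. Cenpa, the histone H3 variant that marks centromeres, read 98.0, 101 and 103 CPM in the NC libraries, against 79.3, 81.9 and 84.0 in the siPUM2 libraries. The groups were far apart, and Cenpa had the lowest p of the 45 genes, rank 204 of all genes tested (1.23-fold lower; log2 fold change -0.30 ± 0.0320, adjusted p = 2.87e-08). Cenpe, a kinesin of the kinetochore, and Cenpf, a large protein of its outer corona, had log2 fold changes of -0.21 and -0.20 and both were called lower (adjusted p = 0.00805 and 0.00332). The call for Cenpe was lost without siPUM2 1 (adjusted p = 0.0645), the lowest library at 29.5 CPM.

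The NDC80 complex, which binds the microtubule, has 4 subunits, of which 2 were called. Ndc80 fell 1.19-fold, with a mean of 52.0 ± 1.698 CPM in the controls and 43.8 ± 0.523 after knockdown (adjusted p = 0.000198) and its partner Nuf2 fell 1.14-fold, although the groups of Nuf2 overlapped and its call was lost without NC 2, NC 3 or siPUM2 2 (adjusted p = 0.0892 to 0.0935). Spc24 (-0.07, interval -0.19 to 0.05) and Spc25 (-0.05, interval -0.15 to 0.05), which anchor the complex to the centromere, were not called. The log2 ratios of Nuf2 to Ndc80, Spc24 to Spc25 and Spc24 to Ndc80 overlapped between the groups (exact permutation p = 0.5, 0.9 and 0.2). The sign for Spc25 turned without NC 2 (0.01). Per length, Spc24 was the highest of the complex in NC at 29.1 ± 1.90 FPKM and Ndc80 the lowest at 9.58 ± 0.330 FPKM, with Nuf2 (20.4 ± 1.41 FPKM) and Spc25 (20.03 ± 1.44 FPKM) not distinguishable between them.

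The spindle checkpoint delays anaphase until all chromosomes are attached, and 3 of its 5 genes fell. The checkpoint kinase Ttk (MPS1) fell 1.19-fold, with a mean of 44.7 ± 0.651 CPM in the controls and 37.6 ± 1.44 after knockdown (adjusted p = 0.000503, edgeR), Bub1b (BUBR1) 1.16-fold and the kinase Bub1 1.15-fold. The other 2 were not called. Mad2l1 (MAD2) read 60.6, 64.8 and 55.8 CPM in the NC libraries, against 61.2, 61.3 and 60.1 in the siPUM2 libraries. The NC values enclosed those of siPUM2, and the log2 fold change was 0.01 (interval -0.08 to 0.10) and turned to -0.04 without NC 3. Bub3 was at 172 ± 3.72 CPM in NC and 164 ± 5.32 CPM in siPUM2 (-0.07, adjusted p = 0.0787). Its groups did not overlap, and per length it was the highest checkpoint gene (99.6 ± 2.04 FPKM in NC against 13.8 ± 1.01 for Mad2l1 and 7.88 ± 0.387 for Bub1).

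All 4 genes of anaphase onset fell, among them the gene with the largest change. Pttg1 encodes securin, which holds separase inactive until anaphase. It read 20.3, 21.8 and 21.8 CPM in the NC libraries, against 15.5, 16.6 and 15.5 in the siPUM2 libraries, so that every siPUM2 library lay well below every control. It fell 1.34-fold (log2 fold change -0.43 ± 0.0628; adjusted p = 5.94e-06, edgeR), with an approximate 95% interval from -0.55 to -0.30. Cdc20, the activator of the anaphase-promoting complex, fell 1.19-fold, with a mean of 48.3 ± 2.67 CPM in the controls and 40.6 ± 3.09 after knockdown (SD, n = 3; adjusted p = 0.00119). The smaller changes were those of separase itself (Espl1, 1.12-fold lower) and of Ube2c (1.08-fold lower), the ubiquitin-conjugating enzyme of the complex. The call for Espl1 was lost without NC 2, NC 3 or siPUM2 2 (adjusted p = 0.0573 to 0.105), and that for Ube2c without NC 1, siPUM2 1 or siPUM2 2 (0.0527 to 0.0725).

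**Figure D3:**
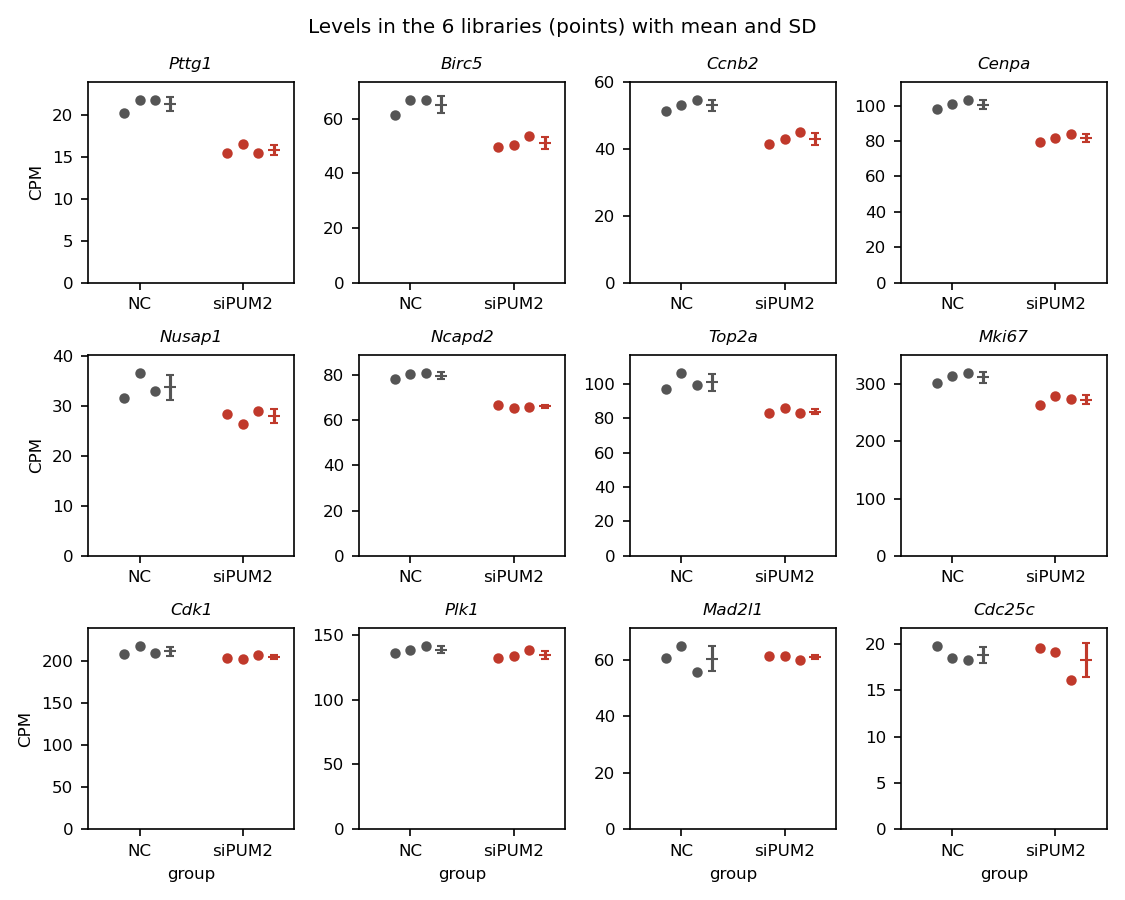
CPM of 12 mitotic genes in the 3 NC and 3 siPUM2 libraries (points, with the mean and SD beside them; each y axis starts at 0). In the upper 8 panels every siPUM2 point lies below every NC point; of the lower 4, the groups overlap for Plk1, Mad2l1 and Cdc25c and nearly touch for Cdk1.

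Genes of chromosome structure fell in 5 of 7 cases. Mki67, whose protein coats mitotic chromosomes and is the common stain for proliferation, was the most abundant of the 45 genes in CPM. It read 301, 314 and 319 CPM in the NC libraries, against 263, 279 and 274 in the siPUM2 libraries and fell 1.14-fold without overlap (log2 fold change -0.19 ± 0.0278; adjusted p = 4.07e-06, edgeR). Top2a, the topoisomerase that untangles sister chromatids, fell 1.20-fold, with a mean of 101 ± 4.89 CPM in the controls and 83.8 ± 1.58 after knockdown (SD, n = 3; adjusted p = 5.27e-07).

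Of the condensin subunits 3 were called lower. Their log2 ratios to Smc4 overlapped between the groups for Smc2, Ncapg and Ncaph (exact permutation p = 0.6, 0.5 and 0.6) and separated for Ncapd2 (exact p = 0.1, the smallest that 3 against 3 libraries allow). The subunit Ncapd2 read 78.1, 80.4 and 80.9 CPM in the NC libraries, against 66.9, 65.6 and 65.9 in the siPUM2 libraries and fell 1.21-fold (-0.27 ± 0.0342; adjusted p = 4.98e-07). The ATPase subunits Smc2 (-0.15) and Smc4 (-0.11) also fell. The call for Smc2 was lost without NC 2, NC 3 or siPUM2 1 (adjusted p = 0.0534 to 0.110) and that for Smc4 without NC 2, siPUM2 1 or siPUM2 3 (0.0564 to 0.112). Ncapg was at -0.17 and just missed the threshold (adjusted p = 0.0535); it passed without NC 2, siPUM2 1 or siPUM2 2 (0.0170 to 0.0467). Ncaph read 66.6, 64.3 and 63.5 CPM in the NC libraries, against 62.7, 61.5 and 61.7 in the siPUM2 libraries, with no overlap but a difference of only -0.06 (interval -0.14 to 0.01). Per length, Smc4 (21.3 ± 0.290 FPKM in NC) and Ncaph (18.8 ± 0.442 FPKM) were above Ncapd2 (11.9 ± 0.233 FPKM), Smc2 (10.3 ± 0.624 FPKM) and Ncapg (5.88 ± 0.361 FPKM).

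All 5 genes of spindle microtubule proteins fell, and none of their groups overlapped. Nusap1, a microtubule bundler, fell 1.21-fold, with a mean of 33.8 ± 2.60 CPM in the controls and 28.0 ± 1.42 after knockdown (adjusted p = 0.00114, edgeR). Ckap2 read 59.0, 58.9 and 58.3 CPM in the NC libraries, against 51.1, 51.0 and 50.6 in the siPUM2 libraries and fell 1.15-fold (adjusted p = 0.000444). Tpx2, which activates Aurora A on the spindle, fell 1.14-fold and Prc1, the bundler of the anaphase midzone, 1.09-fold. Hmmr was called at -0.18 (adjusted p = 0.0254), but not without NC 3 or siPUM2 1 (0.164 and 0.102).

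Of the 3 cytokinesis genes, Racgap1 fell most. Its protein is part of centralspindlin, which recruits the exchange factor Ect2 to the midzone. Racgap1 read 145, 157 and 151 CPM in the NC libraries, against 127, 135 and 126 in the siPUM2 libraries and fell 1.17-fold (-0.23 ± 0.0315; adjusted p = 2.62e-06, edgeR). Ect2 was not called (-0.08, interval -0.19 to 0.03). Anln (anillin), a scaffold of the contractile ring, was called at -0.10 (adjusted p = 0.0398) with overlapping groups, and this call was lost without each library but NC 1 (0.0667 to 0.249), with DESeq2 (0.0906) and with limma voom (0.0560).

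Both transcription factors of the program were called lower. Foxm1 read 61.0, 60.5 and 65.3 CPM in the NC libraries, against 58.5, 55.6 and 54.2 in the siPUM2 libraries (log2 fold change -0.15 ± 0.0439; adjusted p = 0.00993, edgeR; 0.107 without NC 3). Mybl2 read 120, 128 and 122 CPM in the NC libraries, against 117, 107 and 115 in the siPUM2 libraries (-0.12 ± 0.0329; adjusted p = 0.00471; 0.0529 without NC 2 and 0.0728 without siPUM2 2). In both genes the siPUM2 libraries lay below the controls by a narrow margin. On log2(FPKM + 1), neither was called (0.0509 and 0.0595).

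Genes of the same role, some of them partners within a complex, were also compared as log2 ratios of CPM within each library, for 21 pairs. The groups separated for 7 pairs and overlapped for 14. For single genes in CPM, the siPUM2 libraries lay all below NC in 19.2% and all above in 20.7% of the genes tested, so the 7 pairs are given as a description. With 3 libraries against 3 the smallest two-sided p of the exact permutation test is 0.1, and the lowest adjusted p over the 21 pairs was 0.3, so no ratio could pass. Ccnb2 over Cdk1 was -2.02, -2.04 and -1.94 in NC and -2.30, -2.24 and -2.21 in siPUM2. Espl1 over Pttg1, separase over its inhibitor, was 1.37, 1.43 and 1.44 in NC and 1.76, 1.60 and 1.69 in siPUM2, which was higher in each siPUM2 library than in each control. Ncapd2 over Smc4 was lower in each siPUM2 library (difference -0.16) and Mad2l1 over Bub1 higher (0.22). Among the pairs with overlap were Bub1b over Bub1 (-0.01) and Ccna2 over Cdk1 (-0.02).

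Other genes of the mitotic pathway were counted in the same way. In 8 lists of such genes, 146 were tested, of which 45 were called lower (30.8%), 14 higher (9.59%) and 87 not called. Over all genes tested 13.3% were lower and 15.1% higher. The median log2 fold change of the 146 was -0.09. Of 11 further checkpoint and cohesion protection genes 7 fell and none rose, led in p by Sgo2 (1.21-fold lower), the histone kinase Haspin (1.19-fold lower; call lost without NC 1, adjusted p = 0.0515) and Zwilch (1.15-fold lower). Of 28 further kinetochore genes 11 fell, among them Cenpm (1.25-fold) and Cenpo (1.14-fold). Zwint, which links the kinetochore to the checkpoint complex, rose 1.17-fold, with a mean of 161 ± 2.16 CPM in the controls and 189 ± 1.65 after knockdown (SD, n = 3; adjusted p = 9.69e-08, edgeR) and was the only riser of that list. Among 25 spindle pole, centrosome and midbody genes 9 fell and none rose, led in p by the tubulin-binding protein Stmn1 (1.28-fold lower, 313 ± 9.84 to 245 ± 6.28 CPM; adjusted p = 1.02e-10), Cdca3 (1.20-fold) and Tacc3 (1.22-fold).

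Of 13 genes listed as mitotic kinesins 6 fell, led in p by Kif22 (1.17-fold lower), Kif20a (1.16-fold) and Kif4a (1.17-fold). The exception was Cenpj, a centriole protein and no kinesin, which rose 1.17-fold at a low level but lost its call without NC 2, NC 3, siPUM2 2 or siPUM2 3 (adjusted p = 0.0532 to 0.0770) and with DESeq2 (0.0650). Of 17 genes of the anaphase-promoting complex 4 fell (23.5%, against 13.3% of all genes tested) and 2 rose (11.8%, against 15.1%). The subunit Cdc27 rose 1.22-fold, with a mean of 97.3 ± 1.84 CPM in the controls and 119 ± 4.81 after knockdown (adjusted p = 3.11e-08), and Anapc2 1.07-fold (call lost without NC 2 or siPUM2 1, 0.125 and 0.118, and with DESeq2, 0.0612). Anapc5 fell 1.07-fold and Cdc16 1.11-fold, the latter not without NC 1 or siPUM2 1 (0.0709 and 0.109). Of the 16 genes of condensin II and cohesin 3 fell (18.8%) and 2 rose (12.5%), near the 13.3% and 15.1% of all genes tested. The cohesin ATPase Smc1a fell 1.15-fold and sororin (Cdca5) 1.16-fold. Pds5a rose 1.15-fold and Stag2 1.09-fold, the latter not without siPUM2 1 (0.0623). Of 14 genes of mitotic entry control 2 fell, Ccnh (1.14-fold) and Ccnf (1.13-fold), and Cdk7 rose 1.09-fold. These counts (14.3% and 7.14%) were near or below the shares of all genes tested.

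Of 22 MuvB, DREAM and E2F genes, which regulate this transcription program, 7 rose (31.8%, against 15.1% of all genes tested), 3 fell (13.6%, against 13.3%) and 12 were not called, with a median of -0.01. The share that fell was thus at the background. Lin54, the MuvB subunit that binds the homology region, rose 1.25-fold, with a mean of 21.7 ± 0.657 CPM in the controls and 27.2 ± 1.95 after knockdown (adjusted p = 0.000155, edgeR). E2f6, a repressor of the E2F family, rose 1.14-fold, and the log2 fold changes of the other 5 that rose lay between 0.19 and 0.28. Rbbp4, a histone-binding subunit of MuvB and other complexes, fell 1.14-fold. Nfyc and E2f8 were lower at a log2 fold change of -0.16 each. The call for Nfyc was lost without NC 1, NC 2 or siPUM2 1 (adjusted p = 0.0513 to 0.0972) and that for E2f8 without NC 3 or siPUM2 3 (0.0575 and 0.106), with DESeq2 (0.0716) and with no filter on low counts (0.0571).

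Among the parts of the cycle before mitosis, some DNA replication genes were also called lower and none higher. Of 42 licensing and fork genes 20 were called lower (47.6%, against 13.3% of all genes tested), none higher (against 15.1%) and 22 not called. The median of this list was -0.10, against -0.18 for the mitotic genes. The largest falls there by p were those of thymidine kinase Tk1 (1.26-fold lower) and the helicase subunits Mcm6 (1.19-fold) and Mcm2 (1.17-fold). Of the G1 cyclins, kinases and inhibitors, 4 of 14 were lower (28.6%, against 13.3% of all genes tested) and 2 higher (14.3%, against 15.1%). The median of this list was 0.02. Cdk4 fell 1.17-fold, while Ccnd3 (1.20-fold) and the inhibitor Cdkn1a (1.18-fold; 145 ± 2.23 to 172 ± 5.27 CPM, adjusted p = 1.29e-07, edgeR) rose. The difference between these lists was not tested.

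**Figure D4:**
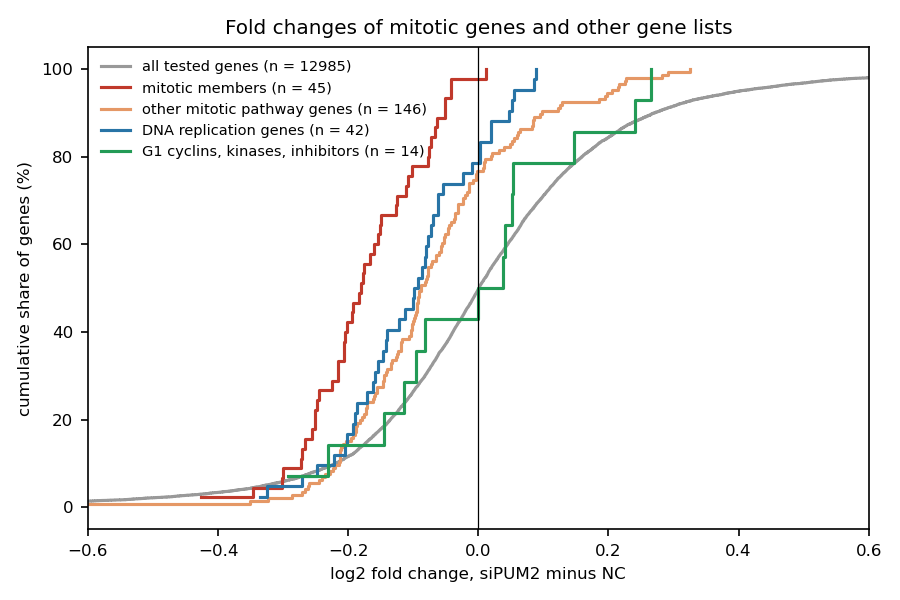
Cumulative share of genes (y axis, percent) at or below each log2 fold change (siPUM2 minus NC, x axis, shown from -0.6 to 0.6) for the 45 mitotic genes, 146 other mitotic pathway genes, 42 DNA replication genes, 14 G1 genes and all 12985 genes tested. The curve of the mitotic genes lies left of the others over most of its range, with its median at -0.18, and the curves of the G1 genes and of all genes pass through 0 near their middle.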

How the data were processed

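The authors deposited raw counts per gene as whole numbers. They also deposited FPKM per gene, per the file headers. HISAT2, DESeq2 and the build mRatBN7.2 appear in the submitters' processing notes, with versions, annotation, counting program, use of strand and treatment of reads shared between gene copies not given in the sources used here. Libraries were grouped by their titles. The 45 genes and all lists were chosen with earlier results of these data known.

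Counts were tested with edgeR 4.0.16 in R 4.3.3 (glmQLFit and glmQLFTest, TMM, filterByExpr, group as the only term), which left 12985 of 19825 genes and removed 0.0465% of the counts. The Benjamini-Hochberg adjustment covered every gene that passed the filter. The SE comes from the F statistic, and intervals are the estimate with its SE at 95% by the normal curve. FPKM was used to compare levels between genes, and gene lengths (counts over FPKM) depend on the authors' gene models, at 6419 bases for Cenpa. All members could be named. Of each other list, the 3 called genes of lowest p and those called against its majority were named, and any further name was chosen after its values were seen. All 233 of 239 list entries that were found matched by symbol.

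No library was a copy of another: within groups the chi-square of a pair, divided by its degrees of freedom, was 2.07 to 3.83. Libraries held 27704702 to 30579237 counts, so 1 count is worth 0.0326 to 0.0360 CPM. The fits were tested on simulated data. Alternatives were other scaling, DESeq2 1.42.0, limma 3.58.1 voom, other filters, a replicate block, log2 FPKM with pseudocounts of 1 and 0.1, removal of length trends, a threshold of 0.01, a test against a fold of 1.1, and leaving out each library. Promoter windows came from RefSeq, 1 per symbol, the first listed.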

Additional observations from a re-analysis of the deposited data

How the results depend on the processing

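No mitotic gene was called higher under any of the 19 alternatives run, and by edgeR at an unadjusted p under 0.05 the count was also 0. The count called lower was 34 as reported, 33 with DESeq2 and with limma voom, and 27 to 34 without 1 library. It was 28 at an adjusted p under 0.01, 24 on log2(FPKM + 1) and 25 on log2(FPKM + 0.1). On log2(FPKM + 1) without a filter it was 20, with 2246 genes called in all against 3692. In the test against a fold of 1.1 it was 10, with 1032 genes called in all. The 10 genes called lower in every alternative were Ccnb2, Cdc25b, Aurkb, Birc5, Cenpa, Ndc80, Pttg1, Top2a, Ncapd2 and Racgap1. Of the 34, 11 lost the call without some single library and 23 did not. The median log2 fold change of the 45 genes ranged from -0.20 to -0.16. Other scalings moved the median of all genes by less than 0.01. With the replicate block, 33 mitotic genes were lower (Anln lost its call, adjusted p = 0.0501) and 3731 genes were called in all. The labels state no pairing of same-numbered libraries. Their deviations from the group means correlated at 0.0342, 0.0204 and 0.0027. NC 1 and NC 2 correlated best with the siPUM2 library of the same number, and NC 3 with siPUM2 2 (0.0370). With 3 libraries in a group, such values cannot tell whether the libraries were paired. The mitotic genes had 435 to 9779 counts in every library, and their SE of 0.0266 to 0.0698 sets the size of change that could be seen.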

Other observations

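The promoter elements were also looked up in tested genes that are not among the 45, as a description with no test. Of 551 such genes with both CCAAT and TTTGAA or TTCGAA in the window, 108 were called lower (19.6%) and 69 higher (12.5%), with a median log2 fold change of -0.02. Of the 9268 without both, 13.5% were lower and 15.9% higher. Genes with the E2F-like element TTTNNCGC were lower in 168 of 851 cases (19.7%), against 13.3% of those without it. Of the 551, 518 were in none of the gene lists used above, and 17.4% of these were lower and 13.1% higher. The genes were also split by a single element, whether or not the other was present, so the genes with it include those with both. For TTTGAA or TTCGAA the gap was small: 202 of 1345 genes with it and 1161 of 8474 (13.7%) without it were lower. In genes of no list the shares were 13.8% and 13.5%. For CCAAT, 15.6% with it and 12.8% without it were lower. Genes with one of these elements and not the other were not counted apart.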
